A study of Arabidopsis thaliana with 9 samples.

Results

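The plastid-encoded RNA polymerase is the bacterial-type enzyme that transcribes most photosynthesis genes of the chloroplast. Its core subunits are encoded by 4 genes of the plastid genome, taken here by their identifiers: rpoA (ATCG00740), rpoB (ATCG00190), rpoC1 (ATCG00180) and rpoC2 (ATCG00170). All 4 were listed in both deposited tables, among 29071 genes in all and 109 of the plastid genome. RNA was sequenced from whole wild-type Col-0 seedlings of Arabidopsis thaliana, 7 days old and grown on diluted Murashige and Skoog medium. The groups were seedlings given doxycycline (labelled Dox), seedlings given ethidium bromide (EtBr), and seedlings given water (H2O), with 3 libraries each. Doxycycline is an antibiotic that stops protein synthesis on bacterial-type ribosomes, and EtBr is a dye that inserts between DNA base pairs. The labels give neither the doses nor how long the treatments lasted. They do not say whether replicates were separate cultures. The p-values therefore reflect the spread among these libraries, which may be technical.

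The alpha subunit (rpoA) starts the assembly of the enzyme, the beta subunit (rpoB) and the beta' subunit (rpoC1) form the catalytic centre, and the beta'' subunit (rpoC2) corresponds to the other part of the bacterial beta' chain. Nuclear-encoded sigma factors lead the enzyme to promoters, and nuclear-encoded associated proteins bind the core. A second, phage-type polymerase encoded in the nucleus transcribes rpoB, rpoC1 and rpoC2, so these subunits of the plastid enzyme are made from transcripts of the other enzyme.

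Positions are those of the deposited tables, which name no genome build. Of the 108 plastid genes with a standard identifier, 102 had the same start, end and strand in the RefSeq annotation of assembly TAIR10.1, all 4 polymerase genes among them. All 4 lie on the minus strand and none overlaps another listed gene. rpoB spans positions 23111 to 26329, rpoC1 20251 to 23084, rpoC2 15938 to 20068 and rpoA 77901 to 78890 of the plastid genome. rpoC1 has 2 exons with 2043 bases and an intron of 791 bases, and the others have 1 exon of 3219 bases (rpoB), 4131 bases (rpoC2) and 990 bases (rpoA). rpoB, rpoC1 and rpoC2 follow each other in the direction of transcription, and rpoA lies elsewhere on the same strand.

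The spacers between these genes are printed because the results turn on how reads fall across neighbours. They were read 5′ to 3′ on the minus strand from the RefSeq sequence of TAIR10.1, and capitals mark the stop codon of the upstream gene and the start codon of the downstream gene. Between the codons lie 26 bases for rpoB and rpoC1 and 182 for rpoC1 and rpoC2.
rpoB to rpoC1 (plastid:23082-23113): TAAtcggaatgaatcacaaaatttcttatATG
rpoC1 to rpoC2 (plastid:20066-20253): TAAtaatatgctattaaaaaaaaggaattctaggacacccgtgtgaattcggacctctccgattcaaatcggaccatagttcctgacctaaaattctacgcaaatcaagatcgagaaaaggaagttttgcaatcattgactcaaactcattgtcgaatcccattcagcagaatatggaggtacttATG

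The window in front of rpoB, from 250 bases before its start codon to 50 bases from the first base of that codon on, is the region in front of the run of 3 genes. Capitals mark the start codon.
rpoB window (plastid:26280-26579, minus strand): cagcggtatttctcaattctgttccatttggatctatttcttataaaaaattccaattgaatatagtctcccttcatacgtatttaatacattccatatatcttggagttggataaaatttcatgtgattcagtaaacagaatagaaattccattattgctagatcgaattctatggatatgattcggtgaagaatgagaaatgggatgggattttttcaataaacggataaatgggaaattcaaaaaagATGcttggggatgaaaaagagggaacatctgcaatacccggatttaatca
Bacterial-type promoters carry a pair of hexamers, TTGACA and TATAAT in their consensus form. Neither exact hexamer stood on either strand of this window or of the same windows of rpoA, rpoC1 and rpoC2. Over the 81 plastid protein-coding genes of the tables, 16.0% of such windows held TTGACA and 43.2% held TATAAT, on either strand. These shares describe letters only. The windows of rpoC1 and rpoC2 reach into the coding sequence of the gene ahead, since the spacers hold 26 and 182 bases. Absence of an exact hexamer from a window does not show that a gene lacks a bacterial-type promoter.

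Libraries held 17724179 to 20330871 reads of listed genes, of which the plastid genome gave few: 0.120 to 0.194% in doxycycline libraries, 0.0208 to 0.0403% in EtBr libraries and 0.0154 to 0.0176% in water libraries. The sources used here do not state whether poly(A) RNA was selected. rRNA genes gave 0.0265 to 0.481% in doxycycline libraries, 0.447 to 0.719% in EtBr libraries and 0.0495 to 0.0904% in water libraries. Mitochondrial genes gave 0.00923 to 0.0848%, 0.359 to 0.469% and 0.0109 to 0.0194% in the same order. The part of library preparation in these shares and in the plastid share was not tested. The 4 polymerase genes together had 903 to 1543 reads in a doxycycline library, 45 to 247 in an EtBr library and 144 to 179 in a water library. EtBr replicate 3 stood apart: it held 45 such reads, against 161 and 247 in EtBr replicates 1 and 2. Shoot markers, 5 nuclear photosynthesis genes, were present in every library. Under doxycycline 0 of these 5 genes passed against water by the test used below, where 11.7% of all genes were called. Their median log2 change was -0.03. Under EtBr they did not move one way against water: LHCB2.1 (1.90) and LHCB1.2 (0.72) rose and CA1 (-2.56) and PSAD1 (-1.68) fell on the log2 scale, while RBCS1A, with most of the reads, did not pass. Their sum in EtBr replicate 3 was 11674 CPM (reads scaled to the same library total), below the range of the other 8 libraries (17997 to 22214). For the polymerase genes, the log2 changes under EtBr and the differences in shares are also given without this replicate. Root markers summed to 13.8 to 22.9 CPM under doxycycline, to 50.2 to 59.7 under EtBr and to 46.1 to 89.0 in water. Their summed level did not overlap between doxycycline and water. By the test used below 6 of 9 fell under doxycycline, where 5.27% of all genes were called lower. These were AIR1, EXPA7, RHS19, PRP1, PRP3 and IRT1, with log2 changes of -6.69 to -3.02. CASP1, CASP2 and CASP5 did not pass (-0.84, -0.25 and -0.48). Under EtBr 2 of 9 rose and 3 fell against water, where 34.2% of all genes were called higher and 21.2% lower. The part of these marker differences in the results was not tested. In whole seedlings, fewer cells of a type and less RNA per cell cannot be told apart.

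Under doxycycline, transcripts of all 4 polymerase genes were higher than in water. The log2 change ran from 2.09 for rpoB to 4.82 for rpoC1. Each treatment was compared with water by limma on log2(normalized count + 1), fitted over every gene of the table with Benjamini-Hochberg adjustment at 0.05, and fold changes are on that scale, on which the value of a low gene moves with the number added. By this test 4 of 4 genes rose, where 6.47% of the 24434 genes of the table were called higher and 5.27% lower (11.7% in either direction). Among the plastid genes 80 of 108 rose and 0 fell, or 42 and 40 rose without doxycycline replicate 2 or 3 and 46 without water replicate 3. The median log2 change was 3.51 over the 4 genes, 2.77 over plastid genes and -0.01 over all genes of the table.

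rpoB, the gene of the beta subunit, had 486, 634 and 553 reads in doxycycline replicates 1, 2 and 3, against 119, 129 and 134 reads in water replicates 1, 2 and 3. The 3 doxycycline libraries all lay above the 3 water libraries, and replicates within each group were close. How many other genes separated the groups in this way, here and for the genes below, was not counted. The deposited normalized count averaged 550.4 ± 68.8 under doxycycline and 128 ± 11.01 in water (SD, n = 3 each). The log2 change was 2.09 ± 0.16 (SE, limma adjusted p = 1.9e-05).

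rpoC1, the gene of the beta' subunit, had 213, 351 and 180 reads under doxycycline, against 2, 23 and 7 reads in water. Groups did not overlap, but water replicate 2 held most of the water reads. The normalized count averaged 244 ± 86.5 under doxycycline and 10.5 ± 10.4 in water (SD, n = 3 each), a log2 change of 4.82 ± 0.63 (limma adjusted p = 0.00078). The change was 5.56 without water replicate 2, 4.09 without water replicate 1 and 4.18 with a pseudocount of 5. Without doxycycline replicate 1, 2 or 3 or water replicate 3 it stayed between 4.55 and 5.01 but missed the threshold (limma adjusted p = 0.0552, 0.0604, 0.0531 and 0.0644). Over the settings tried for it the adjusted p ran from 2.1e-06 to 0.0644.

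rpoC2, the gene of the beta'' subunit, had 128, 379 and 151 reads under doxycycline, against 7, 17 and 12 reads in water. All doxycycline libraries lay above all water libraries, with doxycycline replicate 2 far above the others of its group. The normalized count averaged 216 ± 134 under doxycycline and 11.99 ± 4.68 in water (SD, n = 3 each), and the log2 change was 3.96 ± 0.45 (limma adjusted p = 0.00035).

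rpoA, the gene of the alpha subunit, had 76, 179 and 104 reads under doxycycline, against 16, 10 and 12 reads in water. Again the groups did not overlap and doxycycline replicate 2 was highest. The normalized count averaged 118 ± 51.2 under doxycycline and 12.8 ± 3.25 in water (SD, n = 3 each), with a log2 change of 3.05 ± 0.39 (limma adjusted p = 0.00072). Doxycycline replicate 2 was the highest library for each of the 4 genes and also had the largest plastid share of reads. In the authors' deposited table the 4 genes likewise have higher values under doxycycline, with log2 fold changes of 2.1 (rpoB) to 4.54 (rpoC1) and adjusted p of 3.3e-26 to 2.1e-06.

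**Figure D1:**
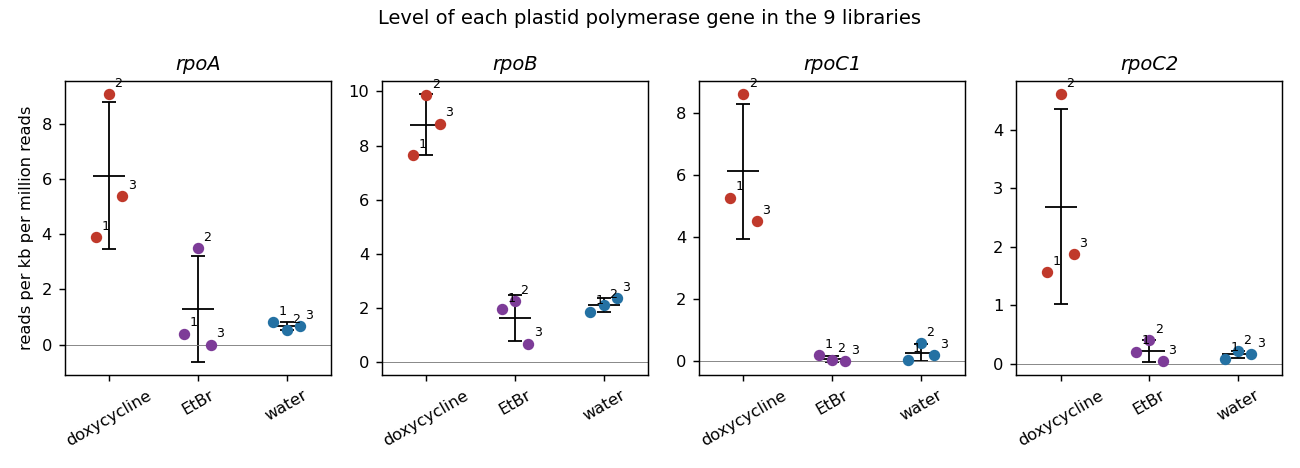
Level of each gene in RPKM, that is reads scaled to library total and exon length (linear axis, own scale for each gene), for doxycycline, EtBr and water. Points are libraries with their replicate number, and bars give mean ± SD (n = 3). Every doxycycline point lies above every EtBr and water point of its gene, and EtBr replicate 2 carries most of the EtBr level of rpoA. How many other genes separate in this way was not counted.

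EtBr gave no called change of the polymerase genes against water. By limma 0 of 4 genes passed, where 55.4% of the 28956 genes of the table were called, 34.2% higher and 21.2% lower. At an unadjusted p under 0.05 the count was also 0, and edgeR and DESeq2 on the recovered reads called 0. Among plastid genes 15 of 104 rose and 2 fell, or 3 rose and 3 fell without EtBr replicate 2 and 8 rose and 1 fell without water replicate 3. The median log2 change of the 4 genes was -0.73, against 0.48 over plastid genes and 0.39 over all genes. Without EtBr replicate 3 it was 0.27, with 0 of 4 genes called.

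rpoB had 128, 143 and 42 reads in EtBr replicates 1, 2 and 3, against 119, 129 and 134 reads in water. EtBr replicates 1 and 2 lay close to the water libraries and replicate 3 well below them. The normalized count averaged 95.5 ± 47.0 under EtBr and 135 ± 10.3 in water (SD, n = 3 each). Its log2 change of -0.64 ± 0.40 had a 95% interval of -1.57 to 0.29 (limma adjusted p = 0.21), so the data allow changes within those limits. Without EtBr replicate 3 the log2 change was -0.14.

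rpoA had 8, 69 and 0 reads under EtBr, against 16, 10 and 12 reads in water, so that the EtBr libraries stood on both sides of the water range. Its normalized count averaged 23.5 ± 34.8 under EtBr and 13.4 ± 3.38 in water (SD, n = 3 each), while the log2 change was -0.82 ± 1.28 (95% interval -3.76 to 2.12, limma adjusted p = 0.60). The mean was higher and the log2 change lower than in water, and without EtBr replicate 3 the log2 change was 0.69. No direction can be given for rpoA.

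rpoC1 had 8, 2 and 0 reads under EtBr, against 2, 23 and 7 reads in water. Its log2 change of -1.62 ± 0.95 ranged from -3.80 to 0.57 (95% interval, limma adjusted p = 0.18). It was -0.86 without EtBr replicate 3, -2.37 without EtBr replicate 1, -2.36 without water replicate 1 and -0.87 without water replicate 2, and -2.73 and -0.88 with pseudocounts of 0.1 and 5. The 0 in EtBr replicate 3 allows up to 3 reads, or 0.0735% of the plastid reads of that library. rpoC2 had 17, 33 and 3 reads under EtBr, against 7, 17 and 12 reads in water, and its log2 change was -0.04 ± 0.75 (95% interval -1.76 to 1.69, limma adjusted p = 0.97), or 0.79 without EtBr replicate 3. The groups overlapped for both genes.

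EtBr libraries were lower than doxycycline libraries for rpoB, rpoC1 and rpoC2. This comparison used the recovered reads of the 24319 genes in both tables, divided by median-ratio size factors. It called 3 of the 4 genes lower, and 0 higher, where 24.8% of these genes were called lower and 32.4% higher (57.3% in either direction), and 67 of 103 plastid genes were lower. The log2 change was -2.72 ± 0.42 for rpoB (limma adjusted p = 0.0017), -6.43 ± 0.75 for rpoC1 (limma adjusted p = 0.00055) and -3.99 ± 0.80 for rpoC2 (limma adjusted p = 0.0054). rpoA, at -3.86 ± 1.39, just missed the threshold (limma adjusted p = 0.0514), and its adjusted p ran from 0.0084 to 0.21 over the settings tried. Its log2 change was -2.48 with edgeR, -2.42 with DESeq2 and -5.02 with a pseudocount of 0.1. EtBr replicate 2 with 69 rpoA reads was close to doxycycline replicate 1 with 76, and without EtBr replicate 2 rpoA fell by 5.35 on the log2 scale (limma adjusted p = 0.0084). Without EtBr replicate 3 rpoA stood at -2.36 (limma adjusted p = 0.0750), the changes of rpoB, rpoC1 and rpoC2 were -2.22, -5.68 and -3.17, and these 3 genes passed. rpoC1 changed by -7.18 without EtBr replicate 1, by -7.78 with a pseudocount of 0.1 and by -5.06 with a pseudocount of 5, since its EtBr level rests on 10 reads, and rpoC2 changed by -4.65 without EtBr replicate 2. The 2 comparisons with water share the water libraries, and each of the comparisons here shares libraries with another, so their values are given side by side only.

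**Figure D2:**
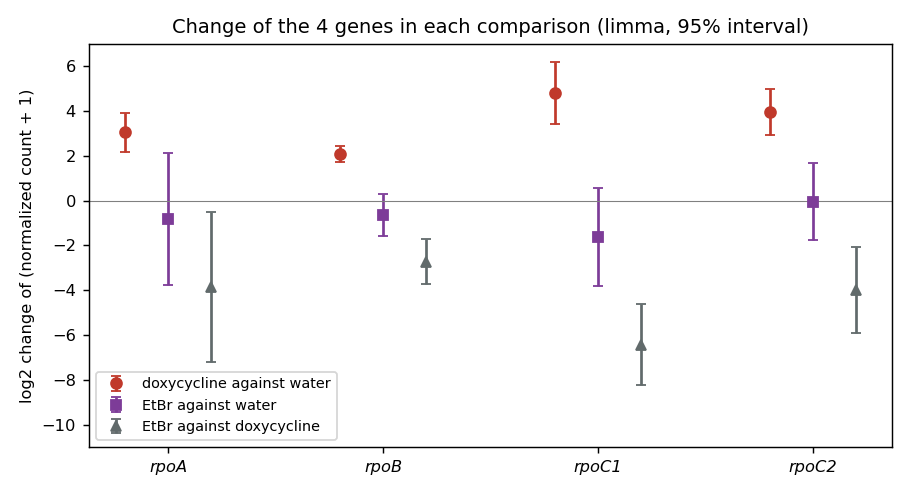
Log2 change of (normalized count + 1) of the 4 genes with 95% limma intervals, for doxycycline against water, EtBr against water and EtBr against doxycycline. The doxycycline intervals lie above 0 for each gene, the EtBr intervals against water include 0 for each gene, and those of EtBr against doxycycline lie below 0, although rpoA did not pass after adjustment.

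Per length, rpoB had the highest mean level in each group, and the level of each of the other subunits relative to it was higher in doxycycline than in water libraries. In RPKM, reads scaled to library total and exon length, rpoB stood at 8.78 ± 1.12 under doxycycline, 1.62 ± 0.835 under EtBr and 2.1 ± 0.246 in water (SD, n = 3 each). rpoC1 stood at 6.14 ± 2.18, 0.0806 ± 0.10 and 0.277 ± 0.279 in the same groups. rpoA stood at 6.11 ± 2.66 under doxycycline, 1.30 ± 1.91 under EtBr and 0.675 ± 0.142 in water. rpoC2 was lowest in mean under doxycycline and in water, at 2.68 ± 1.67 and 0.155 ± 0.0654, and stood at 0.213 ± 0.182 under EtBr. The order in water was rpoB, rpoA, rpoC1 and rpoC2, in which the ranges of rpoA and rpoC1 overlapped, as did those of rpoC1 and rpoC2. Under doxycycline rpoC1 and rpoA did not differ beyond their spread, and both ranges overlapped those of rpoB and rpoC2.

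Set against rpoB in the same library, rpoC1 per kilobase was 51.3 to 87.2% under doxycycline, 0 to 9.85% under EtBr and 2.65 to 28.1% in water. The ratio of rpoC2 to rpoB was 20.5 to 46.6% under doxycycline, 5.57 to 17.98% under EtBr and 4.58 to 10.3% in water. That of rpoA was 50.8 to 91.8% under doxycycline, 0 to 157% under EtBr and 25.2 to 43.7% in water. For each of the 3 ratios, all doxycycline libraries lay above all water libraries. All 3 are divided by rpoB, so they are not separate results. For rpoA the nearest libraries were doxycycline replicate 1 at 50.8% (76 reads) and water replicate 1 at 43.7% (16 reads). As a share of the reads of the 4 genes, rpoA overlapped between doxycycline and water (10.2 ± 1.62% and 7.99 ± 2.83%, exact permutation p = 0.3).

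The spread of reads over the run of rpoB, rpoC1 and rpoC2 is a ratio within a library. A common scaling of all plastid reads would leave it unchanged, and an uneven one would not. The doxycycline libraries, with the largest plastid shares of reads, also had the lowest rpoB shares below, and the part of the plastid share was not tested. The rpoB share was chosen after its values were seen. rpoB held 58.8, 46.5 and 62.6% of the reads of the 3 genes in doxycycline replicates 1, 2 and 3, with exact 95% binomial intervals of 55.3 to 62.1%, 43.8 to 49.2% and 59.3 to 65.8%. In EtBr replicates 1, 2 and 3 it held 83.7, 80.3 and 93.3%, and in water replicates 1, 2 and 3 it held 93.0, 76.3 and 87.6%. Intervals were 76.8 to 89.1%, 73.7 to 85.9% and 81.7 to 98.6% for EtBr and 87.1 to 96.7%, 69.2 to 82.5% and 81.3 to 92.4% for water. The doxycycline libraries did not overlap with the others, whereas EtBr and water did.

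On average rpoB held 55.9 ± 8.40% under doxycycline and 85.6 ± 8.49% in water (SD, n = 3 each), a difference of -29.7 percentage points (exact two-sided permutation test, p = 0.1, the smallest that 3 against 3 allows). With 1 library left out the difference stayed between -34.3 and -25.0. EtBr differed from doxycycline by 29.8 points (85.8 ± 6.75% and 55.9 ± 8.40%, exact permutation p = 0.1), or 26.1 points without EtBr replicate 3. EtBr and water differed by 0.150 points (exact permutation p = 0.9), or -3.63 without EtBr replicate 3, and between -4.50 and 3.82 over the libraries left out. rpoC1 took 24.0 ± 3.11% under doxycycline, 2.12 ± 2.75% under EtBr and 6.58 ± 6.27% in water. The share of rpoC2 was 20.1 ± 6.69% under doxycycline, 12.1 ± 5.998% under EtBr and 7.79 ± 2.30% in water. Intervals cover counting error only.

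**Figure D3:**
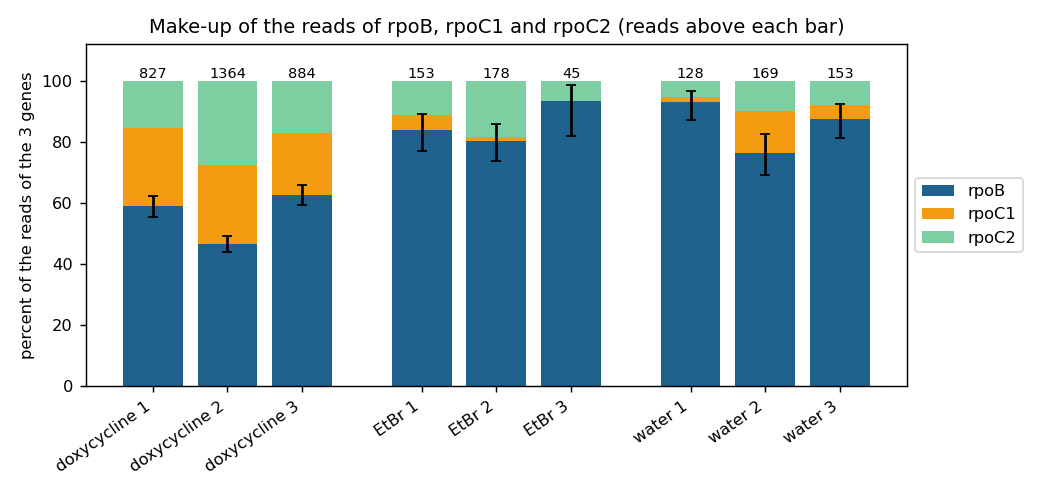
Percent of the summed reads of rpoB, rpoC1 and rpoC2 that fell on each gene, 1 bar per library, with the summed reads above the bar and the exact 95% binomial interval of the rpoB share. rpoB takes 46.5 to 62.6% in doxycycline libraries, 80.3 to 93.3% in EtBr libraries and 76.3 to 93.0% in water libraries.

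Base composition differed little between the 4 genes. A and T made up 66.6% of rpoA, 61.4% of rpoB, 62.5% of rpoC1 and 63.3% of rpoC2, counted over exons. These values lay within the range of 51.8 to 71.3% over the 81 plastid protein-coding genes, counted over whole gene spans with introns. The longest run of A on the coding strand was 14 bases in rpoA, 10 in rpoB, 7 in rpoC1 and 13 in rpoC2. Runs of 8 or more A numbered 2, 2, 0 and 4 in the same order.

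The polymerase genes made up a smaller share of plastid reads in every treated library than in any water library, although 3 against 3 libraries cannot reach a p under 0.05. Together they took 3.82, 3.99 and 3.38% of plastid reads in doxycycline replicates 1, 2 and 3, 3.22, 3.08 and 1.10% in EtBr replicates, and 4.30, 6.08 and 5.29% in water replicates. The 3 groups did not overlap, but the exact 95% binomial intervals of their nearest libraries did. The interval of doxycycline replicate 2 reached up to 4.19% and that of water replicate 1 down to 3.64%. That of EtBr replicate 1 reached up to 3.75% and that of doxycycline replicate 3 down to 3.18%. Whether other plastid genes separated the groups in this way was not tested. Means were 3.73 ± 0.315% under doxycycline and 5.22 ± 0.887% in water (SD, n = 3 each), a difference of -1.49 percentage points (exact two-sided permutation p = 0.1, the smallest possible). Under EtBr the mean was 2.47 ± 1.184%, or -2.76 points against water (exact permutation p = 0.1) and -1.26 points against doxycycline (exact permutation p = 0.1). Without EtBr replicate 3, EtBr differed from water by -2.07 points and from doxycycline by -0.581 points. All plastid reads include those of plastid rRNA genes. As a share of plastid protein-coding reads, doxycycline differed from water by -1.78 points (exact permutation p = 0.1). By the same share, EtBr differed from water by -3.17 points and from doxycycline by -1.39 points (exact permutation p = 0.1 for each). Without EtBr replicate 3 these differences were -2.38 and -0.605 points.

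rpoB, the gene with the most reads, took 1.86 ± 0.210% of plastid reads under doxycycline, 1.79 ± 0.767% under EtBr and 4.08 ± 0.453% in water (exact permutation p = 0.1 for each treatment against water). Without EtBr replicate 3, EtBr differed from water by -1.91 points. The mean shares of rpoC1 and rpoC2 were higher under doxycycline than in water, so the lower joint share came mainly from rpoB. rpoC1 took 0.809 ± 0.167% under doxycycline and 0.355 ± 0.378% in water, with overlapping libraries (exact permutation p = 0.2). rpoC2 took 0.680 ± 0.261% under doxycycline and 0.390 ± 0.184% in water (exact permutation p = 0.3). For rpoA the shares were 0.380 ± 0.0737% under doxycycline and 0.401 ± 0.0708% in water (exact permutation p = 0.7). By size of log2 change under doxycycline, rpoC1 ranked 15, rpoC2 23, rpoA 42 and rpoB 76 among 108 plastid genes.

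**Figure D4:**
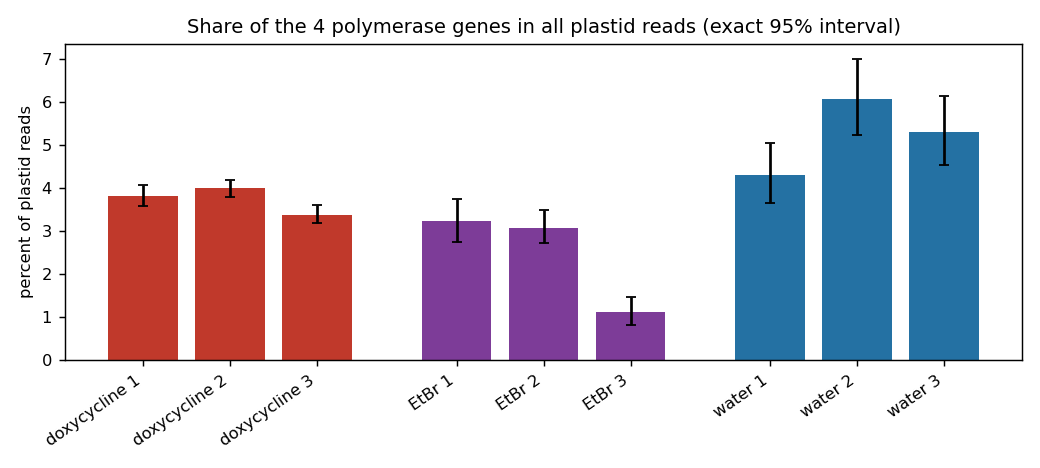
Percent of all plastid reads that fell on the 4 polymerase genes, 1 bar per library, with exact 95% binomial intervals. Doxycycline libraries lie at 3.38 to 3.99%, EtBr libraries at 1.10 to 3.22% and water libraries at 4.30 to 6.08%. The intervals of doxycycline replicate 2 and water replicate 1 overlap, as do those of EtBr replicate 1 and doxycycline replicate 3.

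Genes beside rpoB, rpoC1 and rpoC2 also rose under doxycycline. Behind rpoC2 on the same strand lie rps2, a ribosomal protein gene, and the ATP synthase genes atpI, atpH, atpF and atpA, and ahead of rpoB on the other strand lies petN, a gene of the cytochrome b6f complex. All 6 rose under doxycycline, with a median log2 change of 4.25, where 80 of 108 plastid genes rose with a median of 2.77. The direct neighbour rps2 changed by 2.72 ± 0.40 (limma adjusted p = 0.0017), atpF by 5.36 ± 0.25 (limma adjusted p = 8.7e-07) and atpH by 4.20 ± 0.24 (limma adjusted p = 2.6e-06). The value of rpoB, 2.09, was below each of these, and that of rpoC1, 4.82, lay among them. Under EtBr atpF rose by 1.37 ± 0.35 against water (limma adjusted p = 0.0107) and 5 of the 6 did not pass, rps2 at -0.12 ± 0.63 among them.

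Beside rpoA, on the other strand and tail to tail with it at a distance of 228 bases, lies petD, another cytochrome b6f gene. petD had a log2 change of 6.18 ± 0.56 under doxycycline (limma adjusted p = 7.4e-05), next to 3.05 for rpoA. Under EtBr petD stood at 1.01 ± 0.89 against water and did not pass (limma adjusted p = 0.36). rpl16, a ribosomal protein gene on the strand of rpoA, rose by 1.75 ± 0.24 under doxycycline (limma adjusted p = 0.0012) and stood at 0.53 ± 0.29 under EtBr (limma adjusted p = 0.15). Of the 8 genes shown around rpoA, petD and rpl16 among them, 6 rose under doxycycline. The other 2 did not pass, rpl22 at 0.99 ± 0.34 and rpl2 at 0.84 ± 0.62 (limma adjusted p = 0.094 and 0.44). Summed over libraries, rpl2 had 6 reads under doxycycline and 2 in water, too few to show whether it changed.

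**Figure D5:**
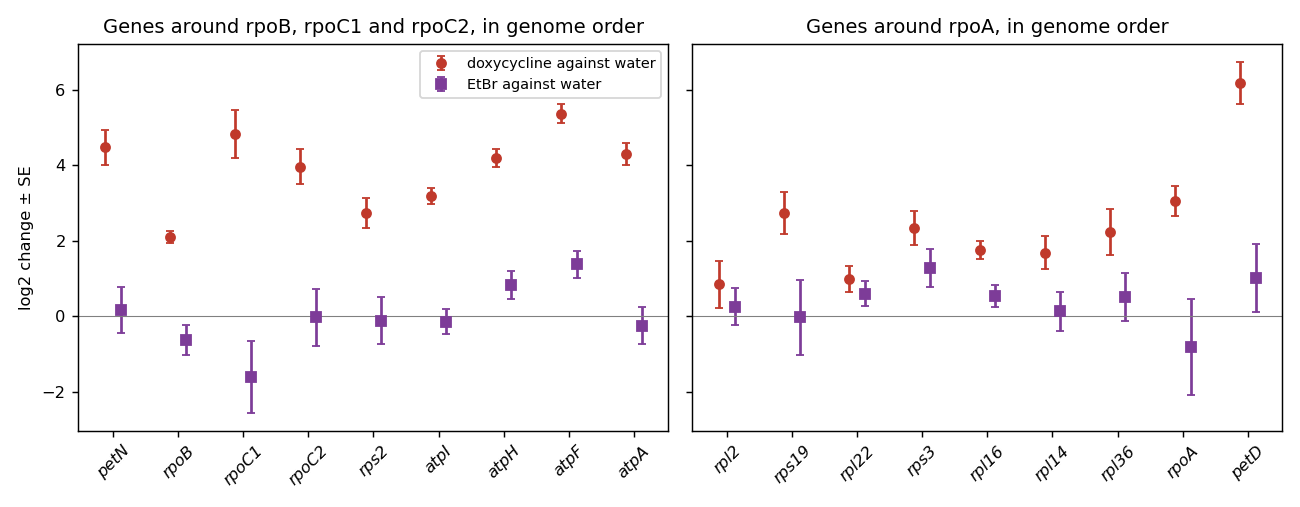
Log2 change against water ± SE of the polymerase genes and genes around them, in order along the plastid genome in the direction in which the polymerase genes are read (petN and petD lie on the other strand), for doxycycline and EtBr. Under doxycycline rpoB at 2.09 is the lowest of the 9 genes of its panel and rpoA at 3.05 is exceeded by petD at 6.18. The EtBr values of rpoC1 and rpoA, -1.62 and -0.82, are the lowest of their panels (that of rpoA is 0.69 without EtBr replicate 3). The values of rpl2 rest on 6 reads under doxycycline, 3 under EtBr and 2 in water, summed over libraries.

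Plastid genes known as targets of each polymerase were set beside the 4 genes. Of 9 genes that need the plastid-encoded enzyme (photosystem, rbcL and petB), 8 rose under doxycycline, 0 fell and the median log2 change was 2.59. Among all plastid genes 80 of 108 rose under doxycycline, with a median of 2.77, and 15 of 104 rose under EtBr. petB changed by 5.52 ± 0.39 (limma adjusted p = 1.2e-05) and psbE by 1.91 ± 0.32 (limma adjusted p = 0.0040). Doxycycline libraries were close for psbE, at 11.7 to 15.1 RPKM. They were uneven for psaA (1.57 to 18.5) and rbcL (7.24 to 71.4), which passed at limma adjusted p = 0.0415 and 0.0333. The count of 8 was not repeated with a library left out. Under EtBr 1 of 9 rose against water, psbA by 1.28 ± 0.47 (limma adjusted p = 0.0460), with a median of 0.46. Of 5 entries read mainly by the nuclear-encoded enzyme outside rpoB, rpoC1 and rpoC2, 2 rose under doxycycline. accD, a gene of fatty acid synthesis, rose by 3.26 ± 0.50 and ycf1, a gene of the protein import machinery, by 4.05 ± 0.40 (limma adjusted p = 0.0023 and 0.00012). clpP, a protease gene, stood at 0.92 ± 0.28 and did not pass (limma adjusted p = 0.0571). Under EtBr ycf1 rose by 2.29 ± 0.57 and clpP by 0.90 ± 0.30 against water (limma adjusted p = 0.0091 and 0.0332). The remaining entries are both copies of ycf2 in the inverted repeat, identical sequences between which reads cannot be divided, and they had 0 to 4 reads in a library.

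Of 12 nuclear genes for polymerase-associated proteins, 2 rose under doxycycline and 0 fell, where 6.47% of all genes were called higher and 5.27% lower, with a median log2 change of 0.18. They were PAP6 (AT3G54090), a fructokinase-like protein, at 0.91 ± 0.14 and PAP5 (AT2G34640), also known as HEMERA, at 0.61 ± 0.12 (limma adjusted p = 0.0020 and 0.0106). Under EtBr 3 of 12 rose and 5 fell against water, where 34.2% of all genes were called higher and 21.2% lower. PAP6 rose by 1.38 ± 0.17 and PAP5 by 0.93 ± 0.17, while PAP2 (AT1G74850) changed by -1.14 ± 0.17 and PAP12 (AT5G24314) by -0.83 ± 0.15 (limma adjusted p = 0.00023, 0.0018, 0.00079 and 0.0017).

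Among the 6 sigma factor genes, SIG5 (AT5G24120), known to respond to light and stress, rose by 1.55 ± 0.23 under doxycycline (limma adjusted p = 0.0016) and the other 5 did not pass. Under EtBr SIG5 rose by 2.69 ± 0.34 and the other 5 fell against water, SIG3 (AT3G53920) by 1.68 and SIG2 (AT1G08540) by 1.14 on the log2 scale (limma adjusted p = 0.00030, 6.5e-05 and 8.9e-05). All 3 phage-type polymerase genes rose under each treatment. Of all genes, 6.47% were called higher and 5.27% lower under doxycycline, and 34.2% higher and 21.2% lower under EtBr. RPOTP (AT2G24120), the plastid enzyme, rose by 0.60 ± 0.16 under doxycycline and by 1.28 ± 0.20 under EtBr against water (limma adjusted p = 0.0400 and 0.00085). RPOTMP (AT5G15700), which serves mitochondria and plastids, rose by 1.19 ± 0.26 and 2.74 ± 0.27 in the same comparisons (limma adjusted p = 0.0142 and 9.4e-05), and RPOTM (AT1G68990), the mitochondrial enzyme, by 0.66 ± 0.14 and 1.36 ± 0.20 (limma adjusted p = 0.0128 and 0.00061).

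The mean profile of the 4 genes over the 9 libraries was set against every gene in both tables with a mean of at least 10, which left 20889 genes. Likeness was the root mean square difference of log2 values, each profile centred on its own mean. The closest genes were AT3G52790 at 0.53, the plastid gene NDHH (ATCG01110), a subunit of the NADH dehydrogenase-like complex, at 0.55, PELPK1 (AT5G09530), a cell wall protein gene, at 0.58, AT3G16800, annotated as a probable protein phosphatase 2C, at 0.63 and AT2G43670 at 0.64. Next outside the plastid genome was AT1G03700, annotated as a CASP-like protein, at 0.66. Of the 20 closest genes 7 were plastid genes. The polymerase genes themselves lay at 0.36 (rpoC2), 0.81 (rpoB), 0.85 (rpoA) and 1.16 (rpoC1) from their mean profile. The outside genes were picked as the closest of 20889, so that 3 of the 4 lay farther than these does not measure how alike the 4 are.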

How the data were processed

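Per the labels' protocols, TRIzol was used to extract total RNA and a NEBNext Ultra RNA kit to build 9 libraries. The submitters' processing notes name DESeq 1.18.0, HTSeq 0.6.1, TopHat2 2.0.12, Bowtie2 2.2.3 and CASAVA 1.8 without roles. Neither the genome build nor the strand setting is stated in the sources used here, and genes on opposite strands may share reads. The authors deposited a table for each treatment against water. For each library the authors deposited a signal value per gene, a normalized count that is reads over a size factor. Dividing by the smallest nonzero value of a column gave whole reads (tolerance 0.001) for 100% of values in all 12 library columns, which tests little for the 4 columns whose smallest value lay within 2% of 1. The recovered water reads were equal in both tables for 100% of 24319 shared genes. The authors also deposited a log2 fold change, a p-value and an adjusted p per gene.

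Normalized counts were tested with limma 3.58.1 (R 4.3.3) on log2(value + 1) with a mean-variance trend, the 6 libraries compared, no covariate and no filter. Shares were compared by exact permutation over libraries, and 95% binomial intervals are exact (Clopper-Pearson). A count of 0 allows 3 reads. Levels per length used the tables' exon lengths. edgeR 4.0.16 and DESeq2 1.42.0 on recovered reads, pseudocounts of 0.1 and 5, a filter (mean of at least 10), a fit without trend, centring, a replicate block, the authors' adjusted p and each library left out were alternatives. Fits were tested on simulated data. The chi-square of reads per degree of freedom between replicates was at least 8.23, so none was counted as a copy. Of each gene list, up to 4 members with the smallest adjusted p were named, plus rps2, petD and the phage-type polymerases. Some genes near rpoA are not reported here. The members and lists were chosen with earlier results of these data known.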

Additional observations from a re-analysis of the deposited data

How the results depend on the processing

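Of the 4 genes under doxycycline against water, rpoA, rpoB and rpoC2 stayed higher and past the threshold under each alternative run, and rpoC1 missed it without 1 of 4 libraries (values above). All genes called in this comparison numbered 2868, against 1425 without a variance trend and 777 to 1980 with 1 library left out (802, 809 and 777 without doxycycline replicate 1, 2 or 3, 1644 without water replicate 2 and 924 without water replicate 3). Under EtBr against water no polymerase gene was called under any alternative run, and 2 changed sign. rpoA was 0.76 with edgeR, 0.81 with DESeq2 and in the authors' deposited table, and -2.32 to 0.69 with 1 library left out (0.69 without EtBr replicate 3). rpoC2 was 0.0582 with a pseudocount of 5, 0.31 with edgeR, 0.36 with DESeq2 and in the authors' deposited table, and -0.69 to 0.79 with 1 library left out, being 0.79 without EtBr replicate 3, 0.21 without water replicate 2 and 0.02 without water replicate 3. The cause was not tested. The filter left rpoC1 out of this comparison. Between EtBr and doxycycline rpoA passed under 6 alternatives, such as edgeR (adjusted p = 0.0395) and the filter (limma adjusted p = 0.0229). The rpoB share among rpoB, rpoC1 and rpoC2 in EtBr minus water lay between -4.50 and 3.82 points with 1 library left out, below 0 without EtBr replicate 3 (-3.63) and without water replicate 2 (-4.50).

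Pairing of libraries by replicate number was not clear. Same-numbered libraries deviated together with correlations of -0.0126 to 0.0189 for doxycycline and water, -0.147 to 0.129 for EtBr and water and 0.0371 to 0.210 for EtBr and doxycycline. For differently numbered libraries the correlations were -0.0696 to 0.0759, -0.197 to 0.231 and -0.182 to 0.146 in the same order of comparisons. The same-numbered values were all above 0 only for EtBr and doxycycline, where pairing cannot be set aside. With a replicate block 2143, 15726 and 13879 genes were called in these comparisons, against 2868, 16040 and 13928 without it, and rpoA was called lower in EtBr than in doxycycline (limma adjusted p = 0.0239). Reads of 0 to 23 per library for rpoC1 under EtBr and in water limit what can be said of it.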
